A study of Mus musculus with 9 samples.

Results

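The regions described here are stretches of open chromatin with a called peak for both control vectors and none for either Pcgf6 vector. Peaks of 4 deposited lists were merged where they shared at least 1 bp, on chromosomes 1 to 19 and X, and a merged region was kept if it held a peak of the LMP8 list and a peak of the mi8 list and no peak of the HP109 or OE lists. This gave 4870 control-only regions of 194733 merged regions (2.5%). The regions were selected on presence and absence in these lists, so their absence from HP109 and OE is a description and carries no test.

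Open chromatin was mapped by ATAC-seq, in which a transposase cuts accessible DNA and leaves sequencing adaptors there, in dendritic cells grown from C57Bl/6 bone marrow for 9 days with 20 ng/mL of the cytokine GM-CSF. Cells received retrovirus on day 2, and those with the human CD8 reporter and CD11c were sorted. HP109 is a vector that knocks down Pcgf6, with LMP8 as its control vector. OE is a vector that overexpresses Pcgf6, with mi8 as its control vector. Each of these 4 vectors had 2 libraries, and 1 further library served as input for all. All cells thus carried a retrovirus, and nothing in the labels ties the 2 libraries of a vector to separate mice.

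Pcgf6 is a Polycomb-group protein that defines the PRC1.6 complex, which is drawn to DNA through partners such as Mga, Max and E2f6 and represses transcription. In dendritic cells, sites that open around cytokine, antigen presentation and interferon genes accompany activation. Type I interferon signals through the receptor chain Ifnar1 to a complex with Irf9 as its DNA-binding subunit, which binds interferon response elements next to antiviral genes.

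The authors deposited 1 list per vector, made from its 2 libraries together, so no value below has a replicate spread and no test between vectors was possible. HP109 had 170077 peaks on these chromosomes and LMP8 140716, and OE had 111488 and mi8 170946. The strength of a peak is given by the authors' −log10 q at its summit, the peak caller's corrected significance over the input. The height at the summit, in overlapping reads, was recovered from the deposited fold and −log10 p. Library depth was gauged from the lists themselves: the lowest input background at a summit was 1.35 reads in HP109, 1.42 in LMP8, 2.00 in OE and 1.95 in mi8. By this measure alone each Pcgf6 vector was close to its own control. The name of every list also carries input_mi8 and downsample, and how reads were downsampled is not given, so the depth of the original libraries is not known. Of 8 dendritic cell markers, such as Itgax, which encodes CD11c, 8 had a peak within 1000 bp of a gene end in HP109, LMP8 and mi8 and 7 in OE, where Ciita had none. Macrophage markers had one at 6 of 6 genes in every list. Granulocyte and mast cell markers had one at 5 of 8 genes in HP109, 3 in LMP8, 1 in OE and 4 in mi8, with Mpo, Cpa3 and Fcer1a at 0 in every list. Markers of B, T and NK cells had one at 2 of 6 genes in HP109, LMP8 and mi8 and at 1 in OE. Plasmacytoid markers had one at 2 of 2 genes in HP109, OE and mi8 and at 1 in LMP8. Erythroid markers had one at 3 of 3 genes in HP109, LMP8 and mi8 and at 2 in OE. Stromal markers had one at 2 of 3 genes in HP109, 1 in LMP8, 1 in OE and 3 in mi8, so gene-end peaks were not limited to myeloid markers. The part of such cells in the regions below was not tested, and fewer cells of a type and less open chromatin per cell cannot be told apart.

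Promoter sequences show where the control-only regions met annotated start sites. The windows run from 250 bases before to 50 bases after a RefSeq start site of GRCm38.p6. Start sites were not available for every gene, so window counts are not genome-wide. Of 32585 windows, 132, of 124 genes, were touched by a control-only region. Shown first are the protein-coding promoters under the 3 strongest of them, 5′ to 3′ on the gene's strand, with capitals for the bases that the region covered. Ifi44 is induced by interferon, Ccm2 encodes a scaffold protein of endothelial junctions, and Cnrip1 encodes a protein that binds the cannabinoid receptor. The windows lie at chr3:151749861-151750160 on the minus strand, chr11:6559933-6560232 on the plus strand and chr11:17051609-17051908 on the plus strand.
Ifi44: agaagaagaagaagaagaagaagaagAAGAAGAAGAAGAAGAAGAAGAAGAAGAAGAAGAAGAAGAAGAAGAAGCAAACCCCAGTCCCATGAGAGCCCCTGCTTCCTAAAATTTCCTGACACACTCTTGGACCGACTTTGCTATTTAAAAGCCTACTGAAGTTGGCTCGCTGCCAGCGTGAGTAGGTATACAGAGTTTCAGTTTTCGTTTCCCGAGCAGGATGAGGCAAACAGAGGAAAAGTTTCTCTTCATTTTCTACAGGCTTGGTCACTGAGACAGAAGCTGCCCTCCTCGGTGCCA
Ccm2: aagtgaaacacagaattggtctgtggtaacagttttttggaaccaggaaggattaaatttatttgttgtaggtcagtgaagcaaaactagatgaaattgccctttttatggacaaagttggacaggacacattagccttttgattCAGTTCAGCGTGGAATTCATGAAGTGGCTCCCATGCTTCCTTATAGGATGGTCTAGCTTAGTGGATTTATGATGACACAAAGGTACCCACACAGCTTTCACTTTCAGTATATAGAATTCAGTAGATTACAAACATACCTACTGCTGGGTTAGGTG
Cnrip1: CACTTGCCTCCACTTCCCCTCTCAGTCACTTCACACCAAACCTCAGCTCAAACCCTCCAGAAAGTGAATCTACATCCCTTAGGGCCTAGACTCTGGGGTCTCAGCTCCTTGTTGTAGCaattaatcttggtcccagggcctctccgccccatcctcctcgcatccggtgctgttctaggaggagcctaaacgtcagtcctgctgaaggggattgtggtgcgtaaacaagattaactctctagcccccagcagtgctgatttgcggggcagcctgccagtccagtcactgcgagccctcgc

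The region over the Ifi44 start covered 274 bases of its window and had a −log10 q of 8.62 in LMP8 and 24.6 in mi8. That at Ccm2 covered 155 bases, with 7.65 in LMP8 and 7.76 in mi8, and that at Cnrip1 covered 118 bases, with 7.24 in LMP8 and 14.4 in mi8. The Ifi44 region stood far from any peak of the Pcgf6 vectors, 3540 bp from the nearest in HP109 and 3511 bp in OE. The Ccm2 region was 244 bp from a peak in HP109 and 484 bp from one in OE. The Cnrip1 region was 185 bp from a peak in HP109 and 26787 bp from one in OE.

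Among available start sites, 6 further promoter windows of interferon-stimulated genes had a control-only region within 1000 bp of the start without lying under it. Of these windows, 2 held an interferon response element. These are shown because the element is the landing site of the interferon complex; capitals mark it, searched on both strands as GAAA, any 2 bases and GAAA again. Oas3 senses double-stranded RNA of viruses (chr5:120777610-120777909, minus strand), and Eif2ak2 encodes the antiviral kinase PKR (chr17:78882523-78882822, minus strand).
Oas3: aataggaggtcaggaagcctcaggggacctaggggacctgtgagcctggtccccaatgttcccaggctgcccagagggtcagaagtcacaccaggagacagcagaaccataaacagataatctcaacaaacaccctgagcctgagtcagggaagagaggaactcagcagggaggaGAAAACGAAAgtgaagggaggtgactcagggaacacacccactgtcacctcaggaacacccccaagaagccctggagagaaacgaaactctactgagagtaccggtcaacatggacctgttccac
Eif2ak2: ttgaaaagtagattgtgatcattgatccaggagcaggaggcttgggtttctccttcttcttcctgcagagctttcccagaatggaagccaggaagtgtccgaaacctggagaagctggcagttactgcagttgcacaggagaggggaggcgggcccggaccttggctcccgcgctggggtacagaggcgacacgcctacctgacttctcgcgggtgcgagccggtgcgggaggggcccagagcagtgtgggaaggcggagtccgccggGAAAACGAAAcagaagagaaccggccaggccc

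In Oas3 the element began at position -75 from the start site, between AP-1 motifs, searched as TGANTCA, at -109 and -54. In Eif2ak2 it began at position 18. The control-only regions were weak at both, with a −log10 q of 5.62 in LMP8 and 7.74 in mi8 at Oas3 and of 2.96 in LMP8 and 5.75 in mi8 at Eif2ak2. They lay 938 bp from the start site at Oas3 and 358 bp from it at Eif2ak2 and did not cover the element. Peaks of the Pcgf6 vectors were close by. The nearest HP109 and OE peaks were 323 and 422 bp away at Oas3 and 59 and 62 bp away at Eif2ak2. An element read on the other strand began at position -10 of Ccm2, while the Ifi44 window held none of the 12 motifs searched. Under the Ifi44 region the repeat of the element, read on the other strand, stood at other spacings, which the search did not count. The missing match thus does not show that the Ifi44 start lacks an interferon-type element. A match is a description of the letters and does not show that a factor was bound.

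**Figure D1:**
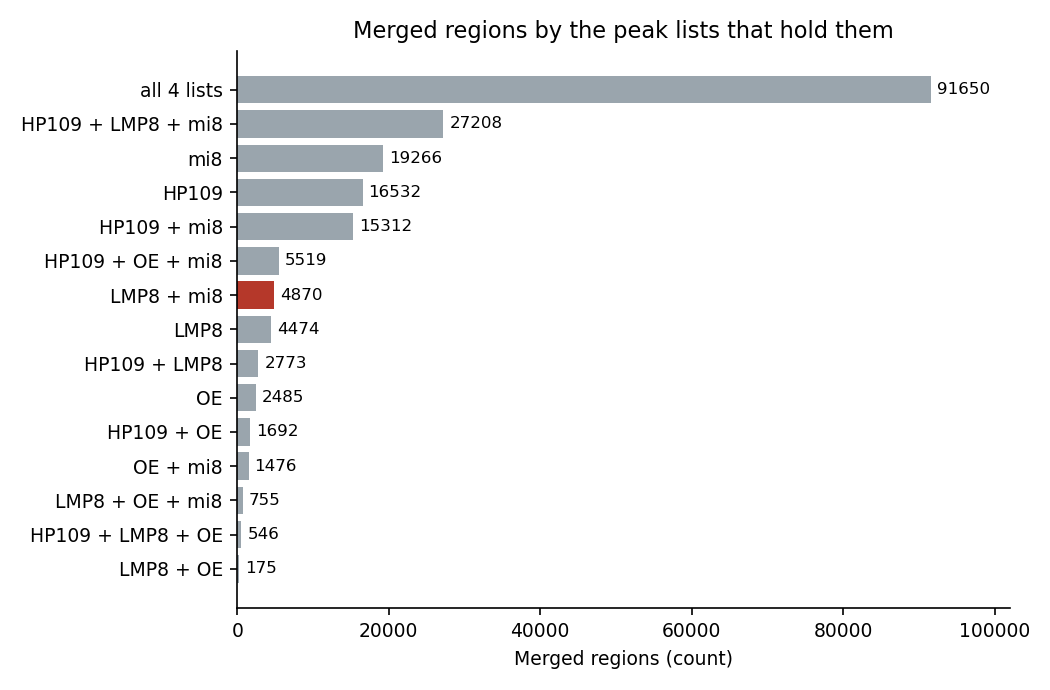
Number of merged regions by the set of peak lists that hold them and no other list, from the most to the least frequent. The 4870 regions in LMP8 and mi8 alone (red bar) outnumber the 1692 in HP109 and OE alone and are fewer than the 91650 in all 4 lists.

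The reverse state, HP109 and OE alone, held 1692 regions (0.869% of all merged regions). The lists differ in length, and when each list was cut to its 111488 strongest peaks there were 3780 control-only regions and 2749 in HP109 and OE alone.

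Control-only regions were weak and narrow. Their median −log10 q was 4.47 in LMP8 (range 1.37 to 16.1) and 5.75 in mi8 (range 1.34 to 33.3), beside medians of 11.4 over all LMP8 peaks and 14.4 over all mi8 peaks. At the summit they had a median of 11 reads in LMP8, against 19 over all its peaks, and 14 reads in mi8, against 24 over all its peaks. The regions had a median width of 179 bp, with the middle 50% between 147 and 223 bp, against 242 bp for all merged regions. The width was not particular to them. The median was 171 bp for HP109 and OE alone, 172 bp for HP109 and mi8 alone and 126 bp for mi8 alone. Regions that only OE lacked were wider, at 227 bp, as were those in all 4 lists, at 394 bp. The control-only regions thus rested on few reads in each control library pair, and the widest spanned 1106 bp.

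The height was greater in mi8 at 4011 of the regions, greater in LMP8 at 477 and equal at 382, with a median mi8 over LMP8 ratio of 1.31, where the lowest background was 1.95 reads in mi8 and 1.42 in LMP8. Across the 4870 regions the −log10 q of LMP8 and mi8 went together weakly (Pearson r = 0.31, Spearman rho = 0.27), a description over regions that share their libraries. The summits of the LMP8 and mi8 peaks lay within 50 bp of each other at 72.4% of the regions, with a median distance of 28 bp.

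**Figure D2:**
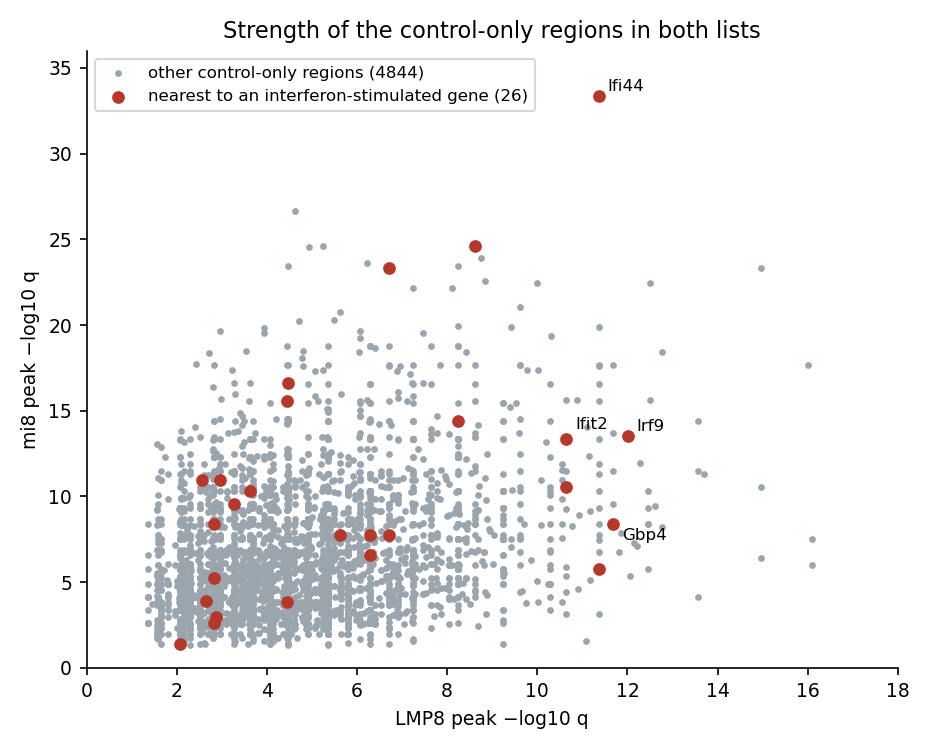
Authors' −log10 q of the LMP8 peak (horizontal axis) and of the mi8 peak (vertical axis) for each of the 4870 control-only regions; red points are the 26 nearest to an interferon-stimulated gene. Most regions lie low on both axes, and the region inside Ifi44 at 11.4 in LMP8 and 33.3 in mi8 stands highest in mi8.

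The share of control-only regions was lower among stronger peaks of the control lists, a description from the lists that chose them. Of 124483 regions present in both LMP8 and mi8, 4870 (3.91%) were absent from both Pcgf6 vectors. Taking the lower of the LMP8 and mi8 −log10 q, the share was 24.4% under 3 (1479 of 6055), 13.97% from 3 to 5, 5.35% from 5 to 7.5, 1.71% from 7.5 to 10 and 0.245% from 10 to 15. At 15 or more it was 1 of 54611 regions, a site 5.58 kb from Il4ra, the interleukin 4 receptor chain (chr7:125546498-125546695, −log10 q 16.01 in LMP8 and 17.7 in mi8). A strong peak of both controls was therefore almost always found with a Pcgf6 vector too. Of 5625 regions in both controls that HP109 lacked, OE also lacked 86.6%, while of 32078 that OE lacked, HP109 also lacked 15.2%. OE had the fewest peaks of the 4 lists and HP109 nearly the most, and the part of list length in these shares was not tested.

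**Figure D3:**
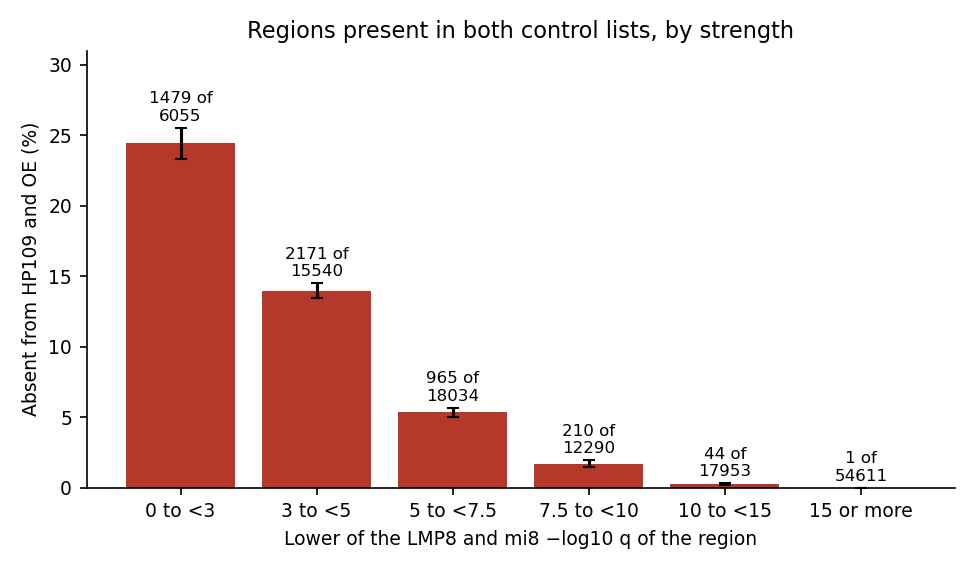
Share of the regions present in both control lists that HP109 and OE lack (percent, vertical axis), by the lower of the LMP8 and mi8 −log10 q (horizontal axis). Error bars are exact 95% binomial intervals over regions, which cover counting error alone. The share falls at each step, with 24.4% in the weakest class and 1 of 54611 in the strongest.

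At the edge of the rule, the 5 weakest control-only regions had a lower −log10 q of 1.34 to 1.37. Among the regions that missed the rule by the weakest Pcgf6-vector peak, 1 with no gene within 100 kb had a single such peak of 1.39 in OE, and those near Arfgef1, Fcrls and Vcam1 had a single one of 1.55 in HP109. These values lie at the detection limit of every list, so membership of the weakest regions turns on very few reads.

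Many control-only regions lay near a peak of a Pcgf6 vector, more often of HP109 than of OE. The nearest HP109 or OE peak was at a median of 1058 bp, within 200 bp for 768 regions (15.8%), within 1000 bp for 2372 (48.7%) and more than 10 kb away for 479 (9.84%). Within 1000 bp lay an HP109 peak for 48.03% of the regions and an OE peak for 36.6%. The median was 1084 bp to HP109 alone and 1894 bp to OE alone, the shorter list. Regions in mi8 alone were within 1000 bp of such a peak nearly as often, at 46.1%.

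By position, 2679 control-only regions (55.0%) lay inside a protein-coding gene, against 58.7% of all regions. A further 1792 (36.8%) lay outside genes and within 100 kb of one, against 34.5% of all regions, and 399 (8.19%) had no gene within 100 kb, against 6.77%. Within 1000 bp of a gene end lay 499 of 4870 (10.2%, exact 95% interval 9.41 to 11.1), against 12.6% of all regions and 17.0% of those in all 4 lists. Most other sets of regions missing from a list were lower, among them HP109 and OE alone (6.32%), HP109 alone (7.46%), HP109 and mi8 alone (7.48%), OE alone (7.85%) and mi8 alone (9.02%). The higher sets all held LMP8. They were LMP8 alone (13.1%), the regions that only mi8 lacked (12.6%), those that only HP109 lacked (11.1%) and HP109 and LMP8 alone (10.5%). Also holding LMP8 but lower were LMP8 and OE alone (8.57%) and the regions that only OE lacked (9.20%). Counted by available start sites instead, 508 of 4710 control-only regions lay within 1000 bp (10.8%, interval 9.91 to 11.7). This interval held the 11.6% of all regions. By that measure only LMP8 alone (12.3%) and the regions in all 4 lists (16.1%) were higher, so the order of the sets depends on which gene ends are counted. Gene ends were less frequent in the stronger control-only regions, at 15.1% with a mi8 −log10 q under 3 and 6.25% at 15 or more. Regions that only OE lacked went the same way, at 16.02% and 6.70%, and regions of mi8 alone had 11.1% and 4.48%, so the fall was not particular to control-only regions. In regions of all 4 lists the corresponding shares were 11.7% and 18.6%. The interval for the strongest class, with 128 control-only regions, was 2.74 to 11.9%. These intervals cover counting error only.

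Where they did meet a promoter window, the sequence was less rich in CpG than under shared regions. The 132 windows had a median GC content of 54.0% and a CpG observed over expected ratio of 0.456. The 13441 windows under a region of all 4 lists had 61.0% and 0.766, and the 17348 windows under no region had 47.7% and 0.215. The core of ETS factors at promoters (CCGGAAGT) stood in 1 of the 132 windows (0.758%), against 8.25% under shared regions, 3.92% of all windows and 0.859% of windows under no region. The E-box CACGTG, which Max and Mga bind, stood in 12 (9.09%), against 10.4%, 7.20% and 4.76% in the same order, and the E2F motif GGCGGGAA in 2 (1.52%), against 4.05%, 2.20% and 0.755%. The AP-1 motif stood in 12 (9.09%), against 5.45%, 7.85% and 9.50%, and the interferon response element in 4 (3.03%), against 3.15%, 3.45% and 3.64%. The GC box GGGGCGGGG, known for SP and KLF factors, stood in 27 (20.5%), against 21.5%, 11.5% and 3.58%. The C/EBP motif TTGCNNAA stood in 11 (8.33%), against 8.80%, 10.9% and 12.6%. For the ETS core, found in 1 window, the share was thus close to that under no region, and for the GC box it was close to that under shared regions. The E-box, AP-1 and C/EBP shares rest on 11 or 12 windows each and lay near those of all windows, so no likeness to either class is read from them. All motifs were searched on both strands and may overlap each other.

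Interferon-stimulated genes held the highest share of control-only regions among 18 gene lists, and ranked 2 with equal list lengths or a limit of 10 kb and 3 without Ifi44. Of 453 regions nearest to these genes, 26 (5.74%, exact 95% interval 3.78 to 8.30) were control-only, against 2.46% of all regions near a gene. The interval covers counting error alone, since regions of 1 locus are not independent and the list was chosen with earlier results of these data known. The 26 belonged to 17 of 55 genes, with 5 at Ifi44 and 3 at Cmpk2, and 16 of them were over 1000 bp from any HP109 or OE peak. HP109 and OE alone held 3 of the 453 (0.662%), against 0.837% near all genes. Their median lower −log10 q, where both controls had a peak, was 14.6, against 12.5 near all genes. Under 7.5, 19 of 88 such regions (21.6%) were control-only, against 11.5% near all genes, and from 7.5 upward 7 of 228 (3.07%), against 0.291%. At gene ends, 6 of the 55 genes (10.9%) had a control-only region within 1000 bp, against 480 of 21627 protein-coding genes (2.22%), open or not. Some other lists came near it: GM-CSF signalling had 9.375%, granulocyte and mast cell markers and macrophage markers 7.69% each, and dendritic cell and myeloid transcription factors 7.5%. Developmental Polycomb targets, germline genes, PRC1.6 and Polycomb genes, lymphoid and plasmacytoid markers, cell cycle genes and ubiquitous promoters had 0.

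Ifi44 had the most control-only regions of the list. Its 19.0 kb body (chr3:151730922-151749910, minus strand) held 5 control-only regions and 1 shared one, so that LMP8 and mi8 each had a peak at 6 places inside the gene and HP109 and OE each at 1. The strongest lay 0.858 to 1.34 kb into the gene, with a −log10 q of 11.4 and 17 reads in LMP8 and of 33.3 and 38 reads in mi8. The region over the start site had 15 reads in LMP8 and 31 in mi8. Further in, at 9.99 to 10.2 kb, the values were 6.71 in LMP8 and 23.3 in mi8, and at 7.32 to 7.57 kb they were 2.96 in LMP8 and 10.97 in mi8. At 0.183 to 0.415 kb they were 2.82 in LMP8 and 5.23 in mi8. The single place with a peak in every list, 3.51 to 3.84 kb into the gene, had 3.89 in HP109, 16.1 in LMP8, 6.71 in OE and 38.6 in mi8. Ifi44 thus had a called peak over its start site in both control lists and in neither list of a Pcgf6 vector, an absence that the rule required. Heights were recovered only at called peaks, so weaker signal there in HP109 or OE cannot be told from closed chromatin.

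At Irf9, Ifit2 and Cmpk2 the start site was open in every list and the control-only regions lay elsewhere. At Irf9, the DNA-binding subunit of the interferon complex, the promoter region had a −log10 q of 99.8 in HP109, 51.3 in LMP8, 70.3 in OE and 82.9 in mi8. A control-only region inside the gene (chr14:55604877-55605122), 298 bp from a start site, had 12.0 and 19 reads in LMP8 and 13.5 and 23 reads in mi8. The nearest HP109 and OE peaks were 285 and 316 bp away. At Ifit2, which binds viral RNA and blocks its translation, the start-site region had 69.8 in HP109, 34.9 in LMP8, 33.4 in OE and 59.8 in mi8. The control-only regions there were 0.565 kb beyond the gene (10.6 in LMP8 and 13.3 in mi8), 5412 bp from the nearest HP109 peak, and inside it (3.27 in LMP8 and 9.58 in mi8). Cmpk2, a mitochondrial nucleotide kinase induced by interferon, had 3 control-only regions of 8, 1 upstream (3.63 in LMP8 and 10.3 in mi8) and 2 weaker ones downstream, beside a start-site region of 74.6 in HP109, 53.1 in LMP8, 34.02 in OE and 88.6 in mi8. Its neighbour Rsad2, the antiviral enzyme viperin, had 1 of 10 (10.6 in LMP8 and 10.5 in mi8).

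Among the others, Rtp4 had 2 control-only regions, the stronger with 8.23 in LMP8 and 14.4 in mi8. Gbp4, a guanylate-binding protein, had 1 at 20.1 kb (11.7 in LMP8 and 8.38 in mi8). The immunity-related GTPases Ifi47, Irgm1 and Iigp1 had 1 each, with 11.4, 6.71 and 4.47 in LMP8 and 5.75, 7.76 and 16.6 in mi8. Trim25, a ubiquitin ligase of RNA sensing, had 1 (4.45 in LMP8 and 15.5 in mi8), and Oas1a, Oas3, Slfn8, Ifih1 (the RNA sensor MDA5) and Irf7, a driver of type I interferon production, had 1 each. Adar, the RNA-editing enzyme, had 2. Their values were 2.55 to 6.29 in LMP8 and 2.64 to 10.95 in mi8, under the medians of all peaks in both lists.

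The densest group of control-only regions covered Ifi207, a member of the interferon-inducible Ifi200 family. The 9 regions spanned 18.9 kb (chr1:173720919-173739800), 7 of them inside the gene (chr1:173723424-173741831). Inside it HP109 had a peak at 5 places, LMP8 at 17, OE at 3 and mi8 at 15, so 7 of its 20 regions (35.0%) were control-only. Their highest −log10 q was 9.25 in LMP8 and 15.5 in mi8. The start site was open in every list, with 117.3 in HP109, 68.7 in LMP8, 79.4 in OE and 107.1 in mi8, as was a site 4.18 to 4.88 kb into the gene. Ifi200 genes are close copies of each other, and how the authors placed reads with several matches is not given in the sources used here, so counts at this locus are uncertain.

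**Figure D4:**
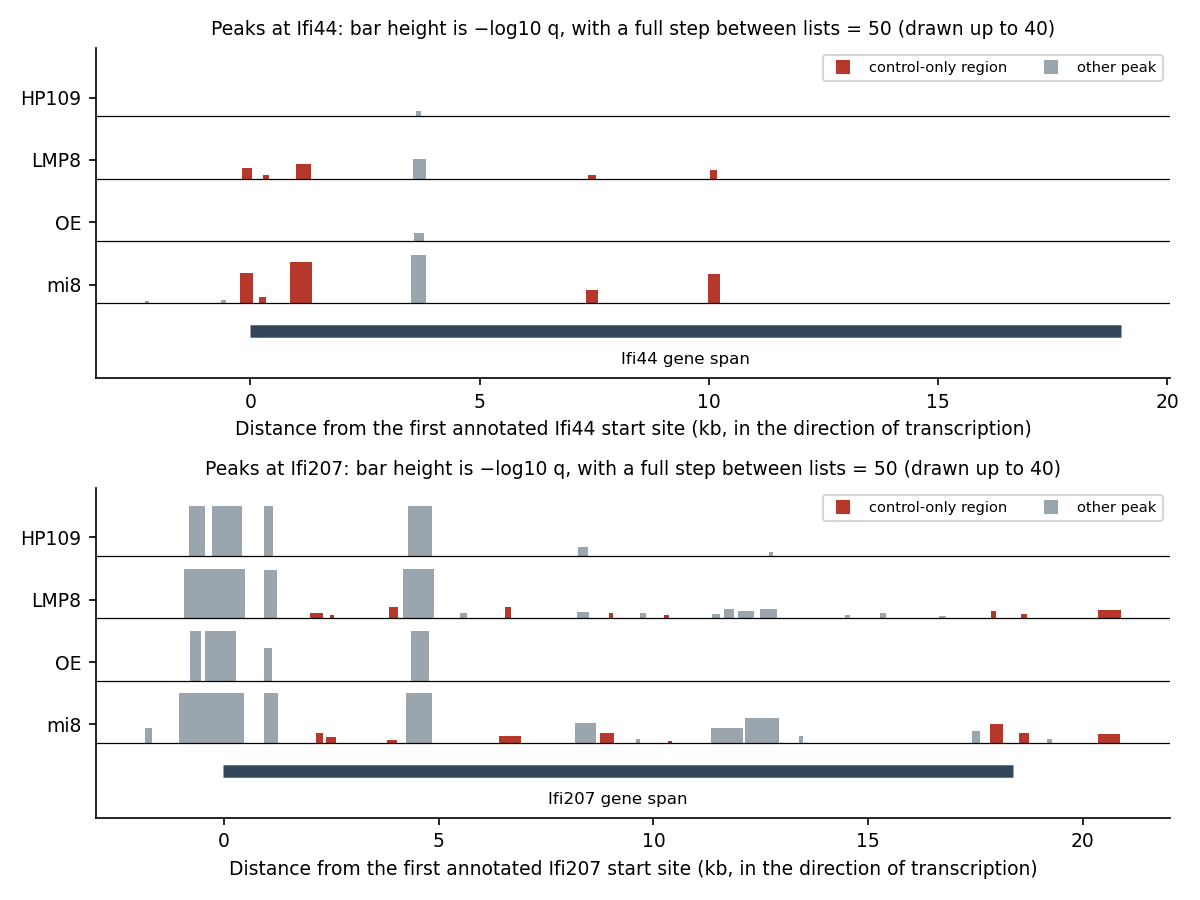
Peaks of the 4 lists at Ifi44 (top) and Ifi207 (bottom) by distance from the first annotated start site (kb); bar height is the authors' −log10 q, drawn up to 40, and red marks control-only regions. Inside Ifi44, LMP8 and mi8 have 6 places with a peak and HP109 and OE have 1 each, while the start of Ifi207 has a tall peak in every list.

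Next to the interferon list came small marker lists whose shares turned on the setting. Erythroid and megakaryocyte markers had 4 of 74 (5.41%, 1.49 to 13.3), at Tal1, Epor and Nfe2. Granulocyte and mast cell markers had 8 of 149 (5.37%, 2.35 to 10.3), with 2 at Kit, the stem cell factor receptor, and 1 at the neutrophil calprotectin gene S100a9 (4.07 in LMP8 and 7.499 in mi8), which had a peak within 1000 bp of a gene end in every list but OE. Developmental Polycomb targets had 7 of 209 (3.35%) and germline genes 5 of 169 (2.96%). Macrophage markers had 17 of 508 (3.35%, 1.96 to 5.30), with 4 regions at the mannose receptor gene Mrc1 and 3 at the scavenger receptor gene Msr1. With equal list lengths, where 2.66% of all regions near a gene were control-only, granulocyte and mast cell markers had 12 of 102 (11.8%), erythroid markers 0 of 50, macrophage markers 2.11% and germline genes 1.77%. With peaks of at least 5 in −log10 q, where the share near all genes was 1.81%, they had 3.05, 0, 1.54 and 0.725% in the same order, so of these 4 lists only granulocyte and mast cell markers stayed above all genes under both settings. Developmental Polycomb targets had 3.45% and 1.97% under them.

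The lists for costimulation and maturation, inflammatory cytokines and chemokines, and GM-CSF signalling had shares between 3.00 and 3.19%, beside 2.46% near all genes. Their exact intervals, 1.96 to 4.89%, 1.76 to 4.76% and 1.88 to 4.81% in that order, all held 2.46%. Of the other groups tied to activation above, interferon-stimulated genes had 5.74% and antigen presentation 1.20%. NF-kB and Toll-like receptor signalling had 1.57%. Costimulation and maturation genes had 20 of 626 (3.19%), of which the adhesion receptor gene Cd44 held 8 and Cd86, a costimulatory ligand, 3; the strongest at Cd86 had 8.23 in LMP8 and 12.3 in mi8. Inflammatory cytokines and chemokines had 17 of 567 (3.00%), with 5 at the monocyte chemokine gene Ccl2 and 4 at Il12b, the p40 subunit of interleukin 12. A region 4.01 kb from Il12b had 5.62 in LMP8 and 20.8 in mi8. The strongest near Ccl2 by the lower value, 26.4 kb from it, had 9.25 in LMP8 and 9.35 in mi8. GM-CSF and growth factor signalling had 19 of 612 (3.10%), with 3 each at Flt3, a receptor for dendritic cell growth, and at the interferon receptor genes Ifnar1 and Ifngr2. With equal list lengths the GM-CSF list had 23 of 465 (4.95%) and the costimulation list 2.45%, beside 2.66% near all genes. Upstream of Ifngr2 the strongest had 6.06 and 14 reads in LMP8 and 11.4 and 27 reads in mi8.

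PRC1.6 and Polycomb genes had 12 of 473 (2.54%), 4 of them in Auts2. Lower shares were found for lymphoid and plasmacytoid markers with 5 of 233 (2.15%), dendritic cell and myeloid transcription factors with 26 of 1307 (1.99%), glycolysis and HIF with 10 of 518 (1.93%), cell cycle with 8 of 445 (1.80%), NF-kB and Toll-like receptor signalling with 11 of 699 (1.57%) and stromal markers with 5 of 324 (1.54%). Some of these moved above all genes under other settings: cell cycle had 3.53% with equal list lengths (2.66% near all genes), and with peaks of at least 5 PRC1.6 and Polycomb genes had 3.51%, glycolysis and HIF 3.23% and cell cycle 2.16% (1.81% near all genes). Antigen presentation had 3 of 249 (1.20%), at Tap1, H2-Aa and H2-Eb2. Ubiquitous promoters had 0 of 191, with an upper interval end of 1.91%, and 3 of 134 (2.24%) with equal list lengths. Zeb2, a repressor in dendritic cells, held 6 of its 163 regions, all with a −log10 q of at most 5.75 in either list.

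**Figure D5:**
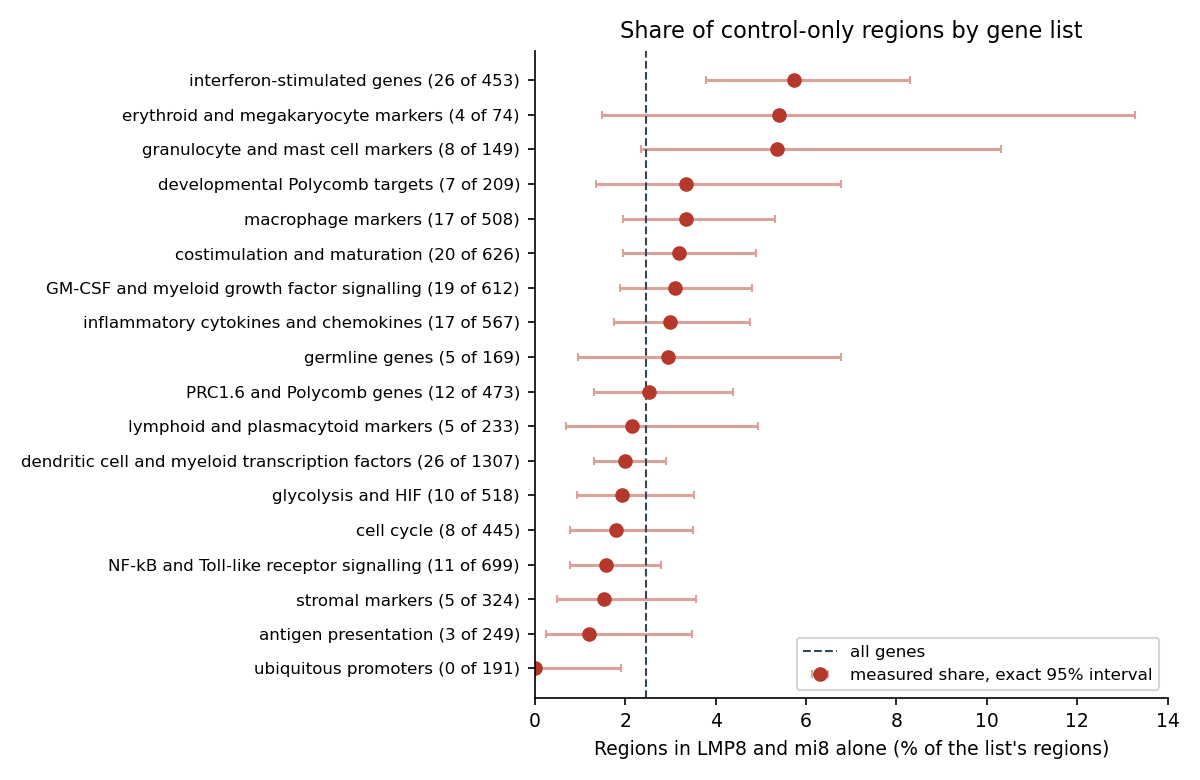
Share of the regions nearest to the genes of each list that lie in LMP8 and mi8 alone (percent, points), with exact 95% binomial intervals over regions; the dashed line is the 2.46% near all genes. The interferon list has the highest share, 5.74%; the intervals cover counting error alone, and regions of 1 locus are not independent.

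The strongest control-only regions lay mostly away from promoters. After the site near Il4ra came sites inside C77080 (14.97 in LMP8 and 23.3 in mi8), Sel1l, a gene of endoplasmic reticulum protein disposal (13.6 in LMP8 and 14.4 in mi8), 46.5 kb from Gpbp1 (12.8 in LMP8 and 18.4 in mi8) and inside Gas7 (12.5 in LMP8 and 22.5 in mi8). The rest of the top 15 were nearest to Irf9, Papola, Ptch1, Pfkfb3, a glycolytic regulator (11.7 in LMP8 and 13.7 in mi8), Itprid2, Ifi44, Foxq1 and Plac8, or had no gene within 100 kb. The C77080 and Gas7 sites were 183 and 179 bp from an HP109 peak.

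At gene ends, the strongest after Irf9 and Ifi44 were at Cops7a (13.7 in LMP8 and 11.3 in mi8), Ifit2 and H2-Q10, a class Ib MHC gene (10.3 in LMP8 and 19.3 in mi8), whose region was 9048 bp from the nearest HP109 peak. They were followed by Fam76b, Ppih, Gm52241, Ccno, Castor2, Efcab14, Atp6v0d2, Rnf135, Zfp108 and Calr3, with 8.23 to 10.1 in LMP8 and 8.41 to 18.4 in mi8.

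Control-only regions were spread over many genes. Of 3307 genes that were nearest to at least 1, 2531 had a single one and 246 had 3 or more. Chains with gaps of at most 20 kb held 1098 regions (22.5%) in 491 groups, and 17 groups had 4 or more. Besides Ifi207, the dense genes were long ones with many peaks: Atp2b1, a calcium pump (9 of 118 regions inside the gene), Lpp (8 of 151), Osbpl8 (8 of 126), Arhgef3, Fndc3a, Foxp1, Gse1 and the Src-family kinase gene Lyn (6 each), and Aopep (5). Inside Atp2b1 HP109 had peaks at 62 places, LMP8 at 60, OE at 20 and mi8 at 101. Its control-only regions reached 5.24 in LMP8 and 8.89 in mi8, and those in Lyn 11.4 in LMP8 and, at another site, 13.3 in mi8.

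Other regions next to control-only ones were missing from the Pcgf6 vectors slightly more often than those elsewhere, a description from the same 4 lists. Over all strengths, OE lacked 39.4% of mi8 regions within 10 kb of a control-only region and 38.2% elsewhere. HP109 lacked 4.80% of LMP8 regions within 10 kb and 4.16% elsewhere. The gap differed between classes of strength. Of mi8 regions with a −log10 q from 7.5 to 10, OE lacked 69.8% within 10 kb of a control-only region (n = 1392, interval 67.3 to 72.2) and 62.1% elsewhere (n = 12403, 61.2 to 62.9). Of LMP8 regions from 3 to 5, HP109 lacked 19.1% within 10 kb (n = 1541, 17.2 to 21.2) and 15.2% elsewhere (n = 13793, 14.6 to 15.8). Of mi8 regions from 10 to 15, OE lacked 50.7% within 10 kb (n = 2056, 48.5 to 52.9) and 44.9% elsewhere (n = 18313, 44.2 to 45.7), and of those of 15 or more it lacked 9.04% and 8.45%. HP109 lacked 5.85% within 10 kb and 5.23% elsewhere of LMP8 regions from 5 to 7.5, with overlapping intervals. Neighbouring regions share libraries and local chromatin, so they are not independent.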

How the data were processed

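ATAC-seq peaks came from 9 libraries, 2 for each of 4 vectors and 1 input. Per the submitters' processing notes, the authors used BWA, Picard and MACS2 on build mm10; versions, thresholds, read shifting and the way 2 libraries became 1 list were left unstated by the labels and notes. The deposited score tracks the −log10 q, the fold (ratio) deposited by the authors sets summit pileup over input background, and the deposited −log10 p and −log10 q give its significance. All are the authors' own values and describe peaks within a list. A whole-number pileup was recovered from fold and −log10 p, as a Poisson tail, within 0.001 for 100% of the peaks of each list, and the step was tested on simulated data.

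Peaks on chromosomes 1 to 19 and X were merged where they shared at least 1 bp, and the strongest peak of a list stood for a region. Regions were assigned to the nearest of 21627 protein-coding gene spans (RefSeq, GRCm38.p6) within 100 kb. Start sites and promoter sequences came from the RefSeq promoter table of that build, which was incomplete. For 4710 of the 4870 control-only regions it held start sites on the same chromosome. Genes such as Ccl2, Rtp4 and Iigp1 had no start site in it. Intervals are exact (Clopper-Pearson) at 95%. Of 571 gene list entries 570 were found, naming 554 genes. The regions and gene lists were chosen with earlier results of these data known. Named were the 15 strongest regions and gene ends by the lower −log10 q of LMP8 and mi8, the 10 densest genes, list genes with such a region at an end or at least 2, and the regions at the edge of the rule, 1 of which is not reported here; single list genes with 1 region were named after their values were seen. Alternatives were stricter peaks, equal list lengths, a distance or reciprocal overlap, gene-end windows and gene assignment. Python 3.11.15, numpy 2.4.6, pandas 2.3.3 and scipy 1.17.1 were used.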

Additional observations from a re-analysis of the deposited data

How the results depend on the processing

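The number of control-only regions, 4870, stayed within 1.5 times of itself at 4726 with peaks of at least 2 in −log10 q, 3780 with equal numbers of peaks per list (111488 each), 4102 when an HP109 or OE peak within 200 bp counted as present and 3976 when the LMP8 and mi8 peaks had to overlap by 50% of each. It was 2976 with peaks of at least 5 in all lists, 1220 with at least 5 in both controls and 2498 when a Pcgf6-vector peak within 1000 bp counted as present. These settings remove weak or neighbouring regions by construction. With equal list lengths, the reverse state of HP109 and OE alone held 2749 regions.

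The share at gene ends, 10.2%, was 10.2% and 9.95% with peaks of at least 2 and 5 and 8.31% with equal list lengths, beside 12.6, 13.01 and 13.8% of all regions in that order. With windows of 500 and 2500 bp it was 4.95 and 20.2%, beside 8.73 and 20.8% of all regions.

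The interferon list's share, 5.74%, was 6.06% within 10 kb of a gene and 7.02% with equal list lengths, beside 2.42 and 2.66% near all genes. Under alternatives chosen after seeing the data it was 7.77% with peaks of at least 5 (1.81% near all genes), 4.75% without Ifi44 (2.46%) and 3.53% when a Pcgf6-vector peak within 1000 bp counted as present (1.23%). It ranked between 1 and 3 of 18 lists under the main and these 5 settings. Of the other 17 lists, 10 left the interval of their main share when a peak within 1000 bp counted, 5 with equal list lengths and 5 with peaks of at least 5. No paired analysis was possible because each vector has 1 list made from both of its libraries, and for the same reason no library could be left out.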

Other observations

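Control-only regions made up between 2.20% (chromosome X, 115 of 5228) and 2.92% (chromosome 5, 324 of 11101) of the merged regions of a chromosome. Outside the fixed lists, chains of 5 with gaps of at most 20 kb lay across Nosip, Rcn3 and Fcgrt, the neonatal Fc receptor gene, on chromosome 7 (20.4 kb) and across Sdcbp and Nsmaf on chromosome 4 (51.3 kb). A chain of 4 lay nearest to Tnfsf8, the CD30 ligand gene, on chromosome 4 (29.2 kb).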
